A study of Mus musculus with 16 samples.

Results

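Cajal-Retzius cells are early-born neurons of the marginal zone, the outermost layer of the embryonic cortex. Most arise outside the cortical field, at the cortical hem, the septum and the border of the pallium, and migrate over the surface of the cortex. They secrete Reelin, a glycoprotein that binds the receptors VLDLR and LRP8 on migrating neurons and acts through the adaptor DAB1 to order the cortical layers. The genes described here are 9 genes used as markers of these cells, out of the 51912 genes listed: *Reln*, *Trp73*, *Calb2*, *Lhx1*, *Lhx5*, *Ebf1*, *Ebf2*, *Ebf3* and *Ndnf*. They were chosen by name, and several of them are also known from other cells, among them *Ebf1* in striatal neurons and *Calb2* in interneurons.

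Total RNA from the cortex of mouse embryos at E15.5 was sequenced with unique molecular identifiers by ClickSeq, in 16 libraries of 15 mice. In the 4 cKO mice *Knl1*, which the labels call Casc5 and which encodes a kinetochore protein, was conditionally knocked out with *hGFAP-Cre*, and in the 4 dKO mice *Trp53* was knocked out along with it. Ctrl mice 2, 6, S1, S3 and T3 had a wild-type *Knl1* genotype and ctrl mice T4 and T5 a heterozygous one, and the labels give no *Cre* or *Trp53* genotype for them. The cKO mice are named 5, 7, S2 and F3, and the dKO mice T2, T8, F1 and F7. According to the study, *hGFAP-Cre* recombines in cortical neural progenitor cells and starts later than *Emx1-Cre*, with which deep-layer neurons were also lost. The sources used here do not say whether Cajal-Retzius cells carried the deletions. Mice came from 4 litters and 3 batches. Litter 1 held ctrl mice 2 and 6 and cKO mice 5 and 7. Litter 2 held ctrl mice S1 and S3 and cKO mouse S2. Litter 3 held ctrl mice T3, T4 and T5 and dKO mice T2 and T8. Litter 4 held cKO mouse F3 and dKO mice F1 and F7. Batch 1 held ctrl mice 2, 6 and S3 and cKO mice 5, 7 and S2, batch 2 held ctrl mouse S1, and batch 3 held the other mice. Fits of cKO versus dKO within batch 3, or with batch or litter as a covariate, thus compare the mutants through cKO mouse F3 alone. In cKO versus ctrl, litter 3 held no cKO mouse and litter 4 no ctrl mouse. Fits of that comparison with litter as a covariate thus compare cKO mice 5, 7 and S2 with ctrl mice 2, 6, S1 and S3. In dKO versus ctrl such fits compare dKO mice T2 and T8 with ctrl mice T3, T4 and T5. The 7 ctrl mice had total counts of 399832 to 3266227, the cKO mice of 4178461 to 8800987 and the dKO mice of 552186 to 5396803, so that all cKO mice were deeper than any ctrl mouse. CPM denotes counts scaled to a total of 1000000 per mouse and adjusted by TMM. The deleted genes did not mark the groups in these counts, which cover whole genes and all cells. *Knl1* ranged from 48.7 to 80.0 CPM over ctrl mice, from 50.0 to 80.4 over cKO mice and from 33.4 to 58.2 over dKO mice. *Trp53* ranged from 15.6 to 47.0, from 24.0 to 33.3 and from 19.8 to 32.3 CPM, and in neither gene did any comparison pass the test.

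In the bulk cortex none of the 9 genes passed the test between any pair of groups. The test was edgeR's likelihood ratio test with an FDR below 0.05 over all listed genes. It called 0 of the 9 genes in cKO versus ctrl, where 0.16% of all listed genes were called. It called 0 of 9 in dKO versus ctrl (0.0501% of all genes) and 0 of 9 in cKO versus dKO (0.052%). The lowest FDR among the 9 genes was 0.907. The quasi-likelihood F test called 1 of the 9, *Ebf1* in cKO versus ctrl (0.678% of all genes), and 0 in the other comparisons (0.218% and 0.354%). DESeq2 called 0 of the 9 in every comparison, against 0.991%, 0.309% and 0.0312% of the genes to which it gave an adjusted p. In dKO versus ctrl it gave none to 7 of the 9 genes, so that only *Reln* and *Ebf1* could be called there. At an unadjusted p below 0.05 there were 2 of the 9 genes in cKO versus ctrl, *Ebf1* and *Reln*, where 10.5% of the genes that pass a filter on low counts had such a p. There were 0 in dKO versus ctrl, against 5.73% of the genes, and 1 in cKO versus dKO, *Lhx5*, against 4.11%. *Calb2* and *Lhx1* failed the filter in cKO versus ctrl, and those genes and *Lhx5* failed it in dKO versus ctrl. The median log fold change of the 9 genes, on the log2 scale, was 0.23 for cKO against ctrl, 0.18 for dKO against ctrl and 0.033 for cKO against dKO, compared with 0.037, 0.013 and 0.046 over the genes that passed the filter. In each comparison 7 of the 9 differences were above 0 and 2 were below. The comparisons share mice, so these counts are not independent. In bulk tissue, fewer cells of a type and less RNA per cell cannot be told apart.

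**Figure D1:**
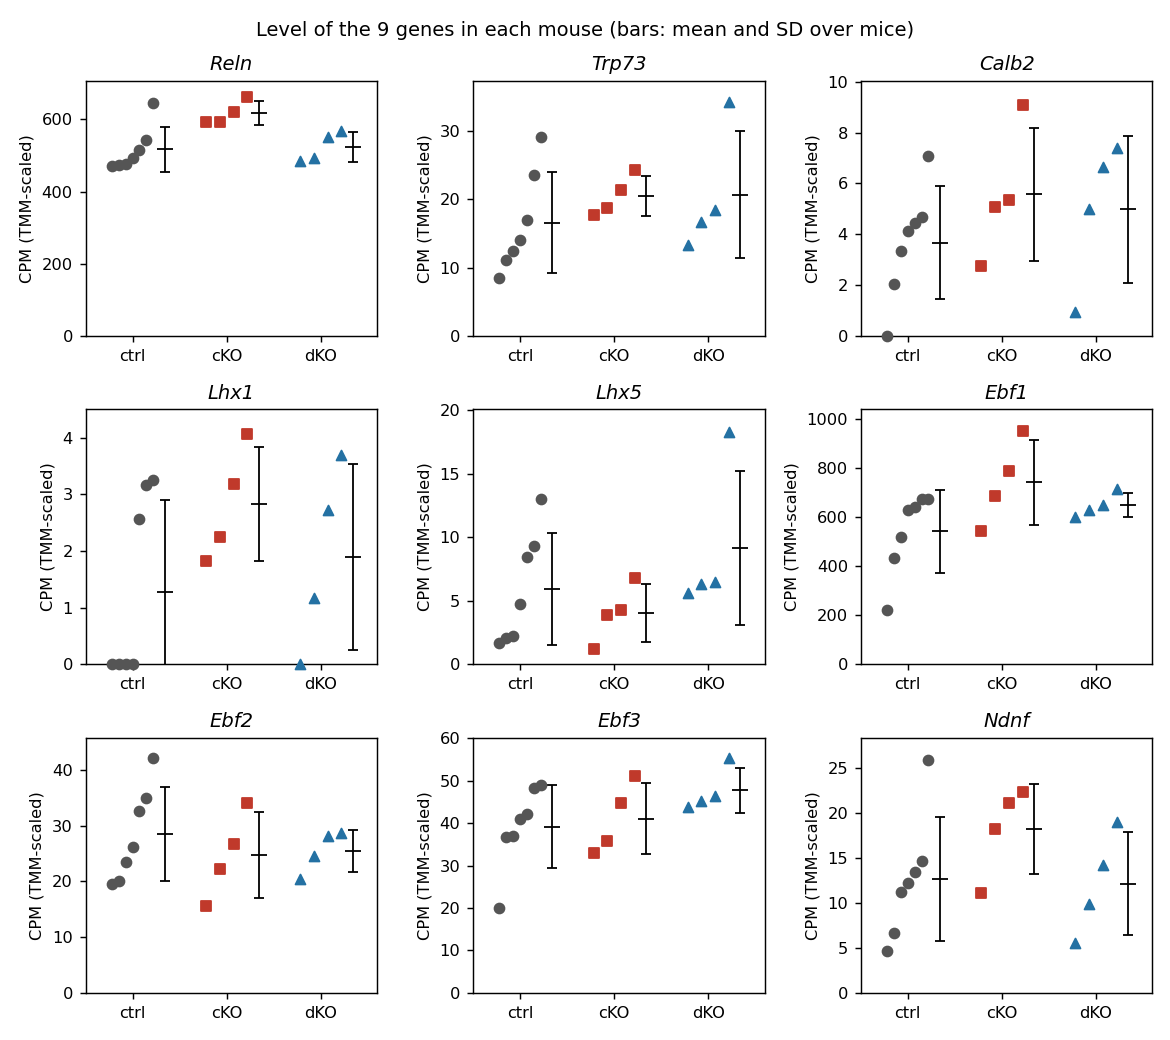
Level of each of the 9 genes in each mouse, in TMM-scaled CPM, by group (grey circles ctrl, red squares cKO, blue triangles dKO), with the mean and SD over mice in black. Each panel has its own axis from 0; the groups overlap in every panel except for cKO and dKO in *Reln*.

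The 9 genes differed widely in level, and 2 of them held most of the counts. *Reln* and *Ebf1* together made up between 87.1% and 93.9% of the summed CPM of the 9 genes in the 15 mice. The summed CPM ranged from 995 to 1303 over ctrl mice, from 1320 to 1675 over cKO mice and from 1243 to 1333 over dKO mice. Without TMM the sums of ctrl and cKO mice overlapped, at 962 to 1404 and 1171 to 1555 CPM. The other 7 genes summed to 84.0 to 131 CPM in ctrl, 103 to 130 in cKO and 113 to 135 in dKO, and these ranges overlapped.

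Levels between genes were compared per length. A check of nested genes showed over which part of a gene reads were counted. Of 245 protein-coding genes that lie in an intron of a gene on the same strand, 99.6% had no count, against 28.2% of 542 genes that lie in an intron of a gene on the opposite strand. Reads in introns were therefore assigned to the genes, by strand, and length was taken as the span of the gene. On that scale *Ebf1* was highest at 1.60 ± 0.42 CPM per kb (SD over 15 mice), followed by *Reln* at 1.19 ± 0.14 and *Lhx5* at 0.660 ± 0.48. *Ebf3* (0.347), *Ndnf* (0.344), *Lhx1* (0.256), *Trp73* (0.222), *Calb2* (0.147) and *Ebf2* (0.135) followed. The ranges over mice of all neighbours in this order overlapped. *Ebf1* was above *Reln* in 12 of 15 mice and *Reln* above *Lhx5* in 13, whereas from *Ebf3* down each gene was above the next in 9 of 15. Per kb of exon, *Ebf1* and *Reln* were again the highest, and the order of the others was different.

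*Reln*, which encodes the secreted signal itself, was the one gene of the 9 with a pair of groups that did not overlap. The gene lies on chromosome 5 of GRCm38, minus strand, from 21884454 to 22344702, and 5.16% of this span is exonic. Its level in ctrl had a lowest value of 470 CPM, a median of 494 and a highest of 646. In cKO mice 5, 7, S2 and F3 it was 619, 592, 593 and 662 CPM. In dKO mice T2, T8, F1 and F7 it was 494, 483, 569 and 551 CPM. Every cKO mouse lay above every dKO mouse, and above 6 of the 7 ctrl mice, the exception being ctrl mouse 6 at 646 CPM. Without TMM the cKO mice were at 567 to 592 CPM and the dKO mice at 511 to 540 CPM, again with no overlap, but ctrl mouse T5, at 585 CPM, was above cKO mice 5 and 7, so that 5 of the 7 ctrl mice lay below every cKO mouse. Of the genes that pass the filter in cKO versus dKO, 3.8% had groups that do not overlap, and 2.73% had every cKO mouse higher, so that 1 such gene among 9 is not a result about the 9. The log fold change was 0.23 in cKO versus ctrl (standard error 0.12, 95% interval 0.0019 to 0.47), an increase of 1.18-fold, with an unadjusted p of 0.0466 and an FDR of 1 in edgeR. In cKO versus dKO it was 0.25 (standard error 0.14, 95% interval −0.019 to 0.51), with an edgeR FDR of 1. In dKO versus ctrl it was 0.026 (95% interval −0.22 to 0.27), and 0.096 with batch as a covariate. In the two-sided exact permutation test over mice, the unadjusted p was 0.0273 in cKO versus ctrl and 0.0286 in cKO versus dKO, the latter being the smallest that 4 against 4 mice can give. On CPM without TMM the first was 0.0848 and the second was again 0.0286. These are 2 of the tests made over 9 genes and 3 comparisons.

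Without ctrl mouse 6 the log fold change of *Reln* in cKO versus ctrl was 0.30, with unadjusted p of 0.00802 in the likelihood ratio test and an FDR of 0.222 in the quasi-likelihood F test. Within batch 1 it was 0.16 and with litter as a covariate 0.14. With litter as a covariate and ctrl mouse 6 left out it was 0.28. In cKO versus dKO it was 0.35 within batch 3 and 0.26 with litter as a covariate. Both of these fits compare the groups through 1 cKO mouse, F3, the highest of the cKO mice in *Reln*. The direction held in the fits of cKO versus ctrl, and none of those had an FDR below 0.05.

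The TMM-scaled level of *Reln* moved with the depth of the mice. It lay between 551 and 662 CPM in the 7 mice with more than 3000000 counts and between 470 and 542 CPM in the 8 mice with fewer. The 7 deep mice were the 4 cKO mice, ctrl mouse 6 and dKO mice F1 and F7. Of 9178 genes with a mean of at least 10 CPM, 0.523% were higher in every deep mouse than in every shallow mouse, and *Reln* was the only one of the 9 genes with no overlap between deep and shallow mice. Without TMM these ranges overlapped, at 526 to 625 CPM in the deep mice and 489 to 585 CPM in the shallow mice. Among deep mice alone, with 4 cKO and 2 dKO mice, the log fold change in cKO versus dKO was 0.14 (unadjusted p of 0.362, edgeR likelihood ratio test). In cKO versus ctrl every cKO mouse was deeper than every ctrl mouse, so that depth and group cannot be told apart.

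**Figure D2:**
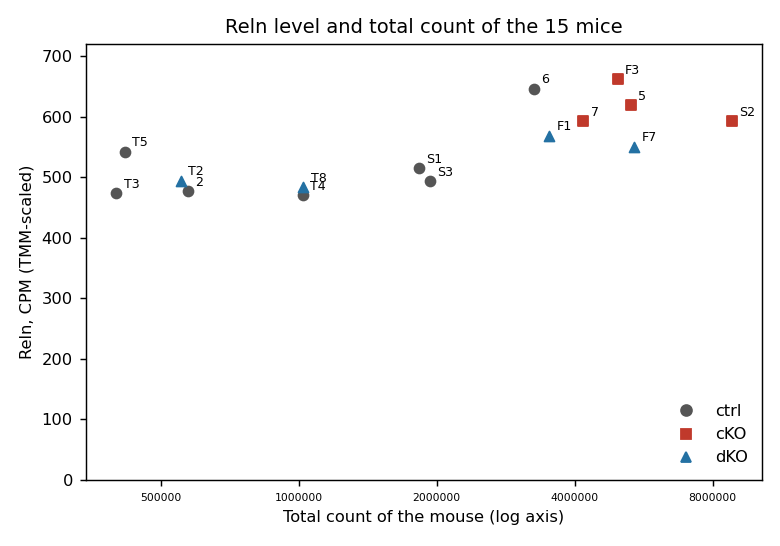
*Reln* level of each of the 15 mice, in TMM-scaled CPM, against the total count of the mouse on a log axis, with mice named and marked by group. The 7 mice above 3000000 counts sit between 551 and 662 CPM and the other 8 between 470 and 542 CPM; without TMM, not drawn, the ranges overlap.

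Of the lists of other neurons, the sums of subplate and deep-layer, interneuron and striatal genes had their highest means in cKO, and that of thalamic genes its lowest. The striatal sum had means of 113 CPM in ctrl, 170 CPM in cKO and 153 CPM in dKO. The summed level of 10 genes of the subplate and deep layers, whose neurons are also born early, was 4148 ± 95.3 CPM in ctrl (SD, n = 7), 4563 ± 223 in cKO and 3789 ± 220 in dKO (SD, n = 4 each). *Sox5*, *Bcl11b* and *Foxp2* held most of it, at means of 2460, 858 and 598 CPM in cKO. The least abundant, *Nxph4*, *Ccn2* and *Cplx3*, were at 5.76, 0.891 and 0.114 CPM in cKO and 7.99, 1.21 and 0 CPM in ctrl. Every cKO mouse lay above every ctrl and dKO mouse in the sum of the 10 genes, at 4328 CPM or more. Without TMM the cKO mice, at 4123 to 4455 CPM, overlapped the ctrl mice, at 4010 to 4534 CPM, and stayed above the dKO mice, at 3944 CPM or less. On that scale the sum had means of 4273 CPM in ctrl, 4296 CPM in cKO and 3824 CPM in dKO, and every dKO mouse lay below every ctrl mouse. By the likelihood ratio test, 0 of its 10 genes were called in any comparison. Of these, *Sox5* and *Tle4* had an unadjusted p below 0.05 in cKO versus dKO, with log fold changes of 0.31 and 0.26. The summed level of 5 thalamic genes was between 553 and 728 CPM in ctrl, 491 and 547 CPM in cKO and 515 and 754 CPM in dKO, with every cKO mouse below every ctrl mouse, also without TMM. *Rora* held most of the thalamic sum, at means of 375 CPM in cKO and 431 CPM in ctrl. The summed level of 13 interneuron genes was between 617 and 1028 CPM in ctrl, 950 and 1117 CPM in cKO and 675 and 1009 CPM in dKO. Of single genes that pass the filter, 2.73% had every cKO mouse above every dKO mouse. No such share was computed for sums of genes or for cKO versus ctrl, so these separations are a description. The part of the cells of these lists in the *Reln* values was not tested.

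The 5 genes whose log2 CPM was most like that of *Reln* over the 15 mice, among 9177 genes, were *Stk32b* (Pearson r = 0.908, Spearman rho = 0.889), *Tmod3* (0.886 and 0.879), *Efr3a* (0.865 and 0.821), *Hecw1* (0.865 and 0.846) and *Itsn1* (0.856 and 0.750). Without mice 6 and F3, the farthest from the median of *Reln*, r was between 0.787 and 0.883. The points share groups, batches and the depth split above, so the values are a description.

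The Reelin pathway was described with 21 further genes, the receptors, the adaptor, kinases, effectors and proteases of the signal. None of the 21 was called in any of the 3 comparisons by edgeR's likelihood ratio test. Their median log fold change was 0.072 for cKO against ctrl, −0.031 for dKO against ctrl and 0.12 for cKO against dKO. *Vldlr*, one of the receptors, was at 62.7 ± 9.13 CPM in cKO and 49.9 ± 10.2 CPM in ctrl, with a log fold change of 0.30 (unadjusted p of 0.0426, FDR of 0.980). *Rap1a*, a small GTPase, was at 65.5 ± 6.97 CPM in dKO and 82.0 ± 8.63 CPM in ctrl, with a log fold change of −0.29 (unadjusted p of 0.0479, FDR of 1). The most abundant members, *Dab1* and *Cdh2*, differed by 0.11 and 0.075 in cKO versus ctrl. The standard errors of these log fold changes were 0.15 for *Vldlr*, 0.16 for *Dab1* and 0.12 for *Cdh2*.

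*Ndnf* encodes another secreted protein and marks neurons of the marginal zone. It lies on chromosome 6, plus strand, from 65671590 to 65712326. Its level in ctrl had a lowest value of 4.67 CPM, a median of 12.2 and a highest of 26.0, the highest being mouse 6. Ctrl mice T3, the lowest, and T5 held 2 and 3 counts, and dKO mice T2 and T8 held 6 each, against 73 to 110 in the cKO mice. The cKO mice 5, 7, S2 and F3 were at 22.3, 18.3, 11.1 and 21.1 CPM. The dKO mice T2, T8, F1 and F7 were at 9.95, 5.54, 14.2 and 19.0 CPM. The groups overlapped. *Ndnf* had a log fold change of 0.31 in cKO versus ctrl (95% interval −0.24 to 0.86), −0.10 in dKO versus ctrl (−0.76 to 0.56) and 0.43 in cKO versus dKO (−0.16 to 1.03). The first was −0.056 within batch 1 and −0.19 with litter as a covariate, so its direction was not kept, and without ctrl mouse 6 it was 0.63 (unadjusted p of 0.0194). The second was 0.59 within batch 3. The third was 0.11 in the deep mice, 0.66 with batch as a covariate and 0.76 without dKO mouse F7 (unadjusted p of 0.0245).

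*Trp73* encodes the p53-family transcription factor p73, which is known from Cajal-Retzius cells of the cortical hem. It lies on chromosome 4, minus strand, from 154056253 to 154140208. Its level in ctrl had a lowest value of 8.40 CPM, a median of 14.0 and a highest of 29.1. The values in cKO mice 5, 7, S2 and F3 were 21.3, 24.3, 17.7 and 18.6 CPM. Those in dKO mice T2, T8, F1 and F7 were 13.3, 34.2, 18.4 and 16.7 CPM. The highest mice, dKO mouse T8 and ctrl mouse 6, came from different groups, and the cKO mice lay inside the range of ctrl. The log fold change was 0.13 in cKO versus ctrl (95% interval −0.33 to 0.59), 0.18 in dKO versus ctrl (−0.40 to 0.76) and 0.033 in cKO versus dKO (−0.41 to 0.48). Over the other fits *Trp73* ranged from −0.14 within batch 1 to 0.36 without mouse 6 in cKO versus ctrl, and reached 0.80 in dKO versus ctrl with litter as a covariate (unadjusted p of 0.0483). A gene at this level could have differed by up to 1.50-fold between cKO and ctrl within the interval. Mice T8 and 6 were also among the 3 mice with the highest sums of 12 genes of the cortical hem and choroid plexus, at 149 and 170 CPM, with ctrl mouse T5 at 153 CPM and *Trp73* at 11.1 CPM. The other mice were between 20.9 and 93.4 CPM in this sum. In that list *Ttr*, which encodes a transport protein of the choroid plexus, fell in cKO versus ctrl, from 20.6 ± 24.9 to 0.386 ± 0.433 CPM, with a log fold change of −5.61 (FDR of 0.00652), and was lower in cKO than in dKO, with −5.02 (FDR of 0.000404). No other gene of the list was called. *Wnt3a*, *Wnt8b*, *Clic6* and *Wnt5a* were lower in cKO than in ctrl at an unadjusted p, with log fold changes of −1.58, −1.51, −1.99 and −0.42. The first 3 of these were low, at means of 2.62, 2.86 and 2.92 CPM in ctrl and 0.777, 0.840 and 0.670 CPM in cKO, where 3 counts are 0.918 to 7.50 CPM in the ctrl mice. The part of these differences in the levels of *Trp73* was not tested.

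*Lhx1* and *Lhx5* encode related LIM-homeodomain transcription factors of Cajal-Retzius cells and of the septum and diencephalon. *Lhx1* lies on chromosome 11, minus strand, from 84518284 to 84525535, and *Lhx5* on chromosome 5, plus strand, from 120431699 to 120441223. *Lhx1* was counted 0 times in ctrl mice 2, T3, T4 and T5 and in dKO mouse T2. These are mice in which the limit that a count of 0 allows, 3 counts, is between 2.94 and 7.50 CPM before TMM scaling. In the other ctrl mice, 6, S1 and S3, it was 3.17, 3.26 and 2.56 CPM, from 5 to 10 counts. Among cKO mice 5, 7, S2 and F3 it was 4.06, 2.25, 3.19 and 1.82 CPM. In dKO mice T8, F1 and F7 it was 3.70, 2.72 and 1.16 CPM. A difference at these levels was not detectable at the depth of the shallow mice. The log fold changes, 0.45, 0.080 and 0.57 in the 3 comparisons, had 95% intervals of −0.44 to 1.34, −1.30 to 1.46 and −0.39 to 1.53. Over the other fits the first ranged from 0.19 with wild-type ctrl mice to 0.77 without mouse 6. The limits cover counting error only.

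*Lhx5* in ctrl had a lowest value of 1.68 CPM, a median of 4.75 and a highest of 13.0. In cKO mice 5, 7, S2 and F3 it was 1.22, 4.25, 3.87 and 6.82 CPM. Among dKO mice T2, T8, F1 and F7 it was 18.2, 6.47, 6.34 and 5.63 CPM, the value of T2 resting on 11 counts. The log fold change in cKO versus dKO was −0.97 (95% interval −1.86 to −0.074, unadjusted p of 0.0374, edgeR FDR of 1), and the exact permutation test over mice gave 0.114. It was −0.59 without mouse T2 (unadjusted p of 0.176), −1.30 without cKO mouse F3 (unadjusted p of 0.00654), −0.16 within batch 3 and 0.21 with litter as a covariate. The fits within batch 3 and with litter compare the groups through cKO mouse F3 alone, the highest of the cKO mice. In cKO versus ctrl the log fold change was −0.62 (−1.54 to 0.30) and in dKO versus ctrl 0.39 (−0.51 to 1.28). These values moved widely with the fit. The former was −0.075 with batch as a covariate, −0.047 within batch 1, −0.20 without ctrl mouse S1 and −0.82 with litter as a covariate (unadjusted p of 0.0243). The latter was 0.13 within batch 3, 0.67 with litter, −0.020 without dKO mouse T2 and 0.79 without ctrl mouse S1. The repeat libraries of cKO mouse S2, which show the technical spread, held 11 and 23 counts of *Lhx5* and 19 and 9 of *Lhx1*, at total counts of 4410038 and 4390949.

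*Calb2* encodes the calcium-binding protein calretinin. It lies on chromosome 8, minus strand, from 110137502 to 110168210. It was counted between 0 and 13 times in the ctrl mice, with a lowest value of 0, a median of 4.12 and a highest of 7.06 CPM. The cKO mice 5, 7, S2 and F3 were at 5.08, 2.75, 5.35 and 9.09 CPM. In dKO mice T2, T8, F1 and F7 it was 4.97, 0.924, 6.64 and 7.37 CPM. The groups overlapped. *Calb2* had a log fold change of 0.57 in cKO versus ctrl (95% interval −0.25 to 1.39), 0.58 in dKO versus ctrl (−0.39 to 1.54) and 0.0011 in cKO versus dKO (−0.81 to 0.81). The first was 0.12 with litter as a covariate, 0.26 without cKO mouse F3, 0.90 with batch as a covariate (unadjusted p of 0.0274) and 0.91 without ctrl mouse S1 (unadjusted p of 0.0378). The second ranged from 0.18 with litter to 1.30 with batch, and the third from −0.33 in the deep mice to 0.70 within batch 3.

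**Figure D3:**
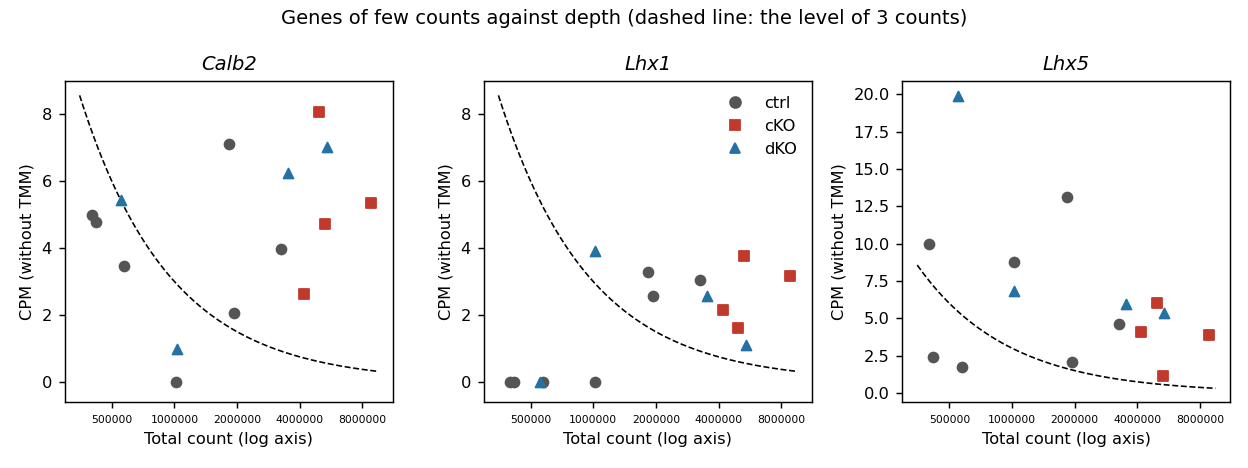
Levels of *Calb2*, *Lhx1* and *Lhx5* in each mouse, in CPM without TMM scaling, against the total count on a log axis, with the level of 3 counts as a dashed line. *Lhx1* was at 0 in 5 mice, each with fewer than 3000000 counts, and the dashed line falls from 7.50 CPM at 399832 counts to 0.341 CPM at 8800987.

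*Ebf1*, *Ebf2* and *Ebf3* encode early B cell factors, transcription factors of differentiating neurons. *Ebf2* lies on chromosome 14, plus strand, from 67233292 to 67430918, and *Ebf3* on chromosome 7, minus strand, from 137193673 to 137314445. *Ebf2* in ctrl had a lowest value of 19.6 CPM, a median of 26.1 and a highest of 42.2. The values in cKO mice 5, 7, S2 and F3 were 15.6, 26.8, 34.0 and 22.3 CPM. The dKO mice T2, T8, F1 and F7 were at 28.2, 28.6, 20.5 and 24.6 CPM. The mutants lay on both sides of the median of ctrl, and the log fold change was −0.14 in cKO versus ctrl (95% interval −0.59 to 0.30), −0.13 in dKO versus ctrl (−0.55 to 0.30) and 0.024 in cKO versus dKO (−0.46 to 0.51). Within single batches *Ebf2* had 0.23 in cKO versus ctrl and −0.38 in dKO versus ctrl.

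*Ebf3* in ctrl had a lowest value of 20.0 CPM, in mouse T5 from 9 counts, a median of 41.0 and a highest of 49.0. Among cKO mice 5, 7, S2 and F3 it was 32.9, 51.0, 44.7 and 35.7 CPM. Those in dKO mice T2, T8, F1 and F7 were 46.4, 55.4, 43.8 and 45.2 CPM. All 4 dKO mice were above the median of ctrl and the groups overlapped. The log fold change was 0.011 in cKO versus ctrl (95% interval −0.32 to 0.35), 0.22 in dKO versus ctrl (−0.12 to 0.56) and −0.18 in cKO versus dKO (−0.54 to 0.18). The second ranged from 0.12 with wild-type ctrl mice to 0.55 with litter as a covariate, and the third from −0.38 with batch to −0.11 in the deep mice.

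*Ebf1* held the most counts of the 9 genes over the 15 mice and had the widest range over ctrl mice in CPM. It lies on chromosome 11, plus strand, from 44617317 to 45008091. Its level in ctrl had a lowest value of 220 CPM, in mouse 6, a median of 630 and a highest of 675. In cKO mice 5, 7, S2 and F3 it was 953, 687, 789 and 543 CPM. Among dKO mice T2, T8, F1 and F7 it was 628, 715, 603 and 651 CPM. Of the 4 cKO mice, 3 lay above every ctrl mouse and F3 lay among them, and without TMM 2 of the 4 lay above every ctrl mouse. The log fold change in cKO versus ctrl was 0.44 (standard error 0.21, 95% interval 0.021 to 0.86), an increase of 1.36-fold, with an unadjusted p of 0.0373 and an FDR of 0.907 in edgeR's likelihood ratio test. The two-sided exact permutation test over mice gave 0.0788. In dKO versus ctrl it was 0.27 (−0.11 to 0.66) and in cKO versus dKO 0.21 (−0.13 to 0.55). The former was 0.043 within batch 3, 0.064 with batch as a covariate, 0.12 with litter and 0.13 without ctrl mouse 6. The latter was 0.074 without cKO mouse 5.

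The call of *Ebf1* in cKO versus ctrl depended on the test, the covariate and 1 mouse. The quasi-likelihood F test gave an FDR of 0.00373, where 0.678% of all genes were called. With litter as a covariate, the likelihood ratio test gave a log fold change of 0.82 and an FDR of 3.05e-07, where 0.231% of all genes were called. That fit does not draw on cKO mouse F3, whose litter held no ctrl mouse and whose *Ebf1* level lay among those of the ctrl mice. Without ctrl mouse 6, chosen after seeing the data, the log fold change was 0.31 (FDR of 0.196) in the F test and 0.46 (FDR of 0.330) in the fit with litter. Within batch 1 it was 0.72 (unadjusted p of 0.0185, FDR of 1). In cKO versus dKO the log fold change was −0.24 within batch 3 and −0.19 with litter as a covariate. Both fits compare the groups through 1 cKO mouse, F3, the lowest of the cKO mice in *Ebf1*.

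The summed level of 10 markers of striatal neurons was lowest in the mouse with the lowest *Ebf1* and highest in the mouse with the highest, but the mice between them were not in the same order in both. It was between 51.0 and 177 CPM in ctrl, 144 and 210 CPM in cKO and 116 and 201 CPM in dKO. Mouse 6 was lowest in both, at 51.0 CPM of these markers, and cKO mouse 5 was highest in both, at 210 CPM. Among cKO mice, S2 had the lowest sum, 144 CPM, with *Ebf1* at 789 CPM, and ctrl mouse T5 had 84.5 CPM with *Ebf1* at 674 CPM. Mice F3 and T3, at 176 and 177 CPM of these markers, had *Ebf1* at 543 and 521 CPM. All 10 markers had log fold changes above 0 in cKO versus ctrl and in dKO versus ctrl, with medians of 0.67 and 0.74. Over the genes that passed the filter on low counts the medians were 0.037 and 0.013, and their share above 0 was not computed. *Drd2*, which encodes a dopamine receptor, rose in cKO versus ctrl, from 6.30 ± 2.01 to 15.5 ± 3.67 CPM, with a log fold change of 1.12 (FDR of 0.0199). *Rarb*, *Tac1*, *Ppp1r1b* and *Drd1* had an unadjusted p below 0.05 in that comparison, with log fold changes of 0.86, 1.12, 0.85 and 0.84, and *Rarb*, *Drd2* and *Tac1* in dKO versus ctrl, with 0.90, 0.97 and 1.11. How much of the *Ebf1* level came from striatal cells was not tested.

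**Figure D4:**
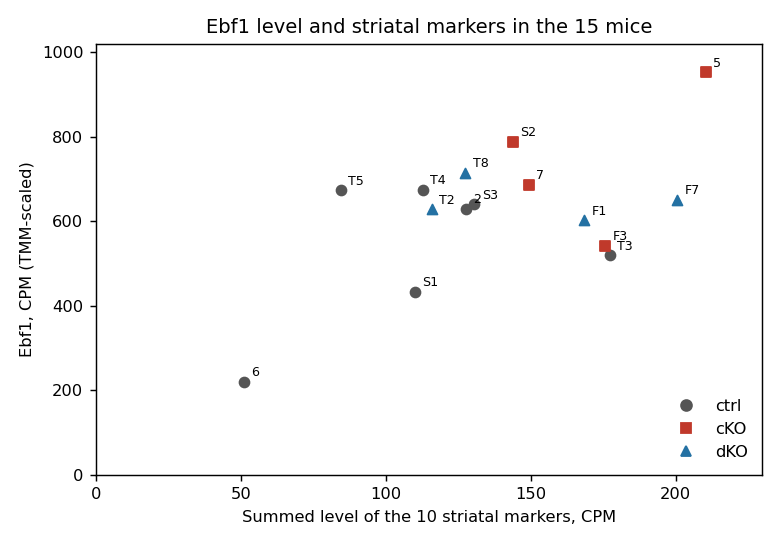
*Ebf1* level of each of the 15 mice, in TMM-scaled CPM, against the summed CPM of the 10 striatal markers, with mice named and marked by group. Mouse 6 sits lowest on both axes (220 and 51.0 CPM) and mouse 5 highest on both (953 and 210 CPM).

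Differences of the 9 genes between groups were set beside each other with their errors. The widest intervals belonged to *Lhx1*, *Lhx5* and *Calb2*, with standard errors between 0.41 and 0.70 in the 3 comparisons. The narrowest belonged to *Reln*, at 0.12 to 0.14, and those of *Ebf3* were 0.17 to 0.18 and of *Ebf1* 0.17 to 0.21. The intervals of *Reln* and *Ebf1* in cKO versus ctrl and of *Lhx5* in cKO versus dKO left out 0, before any adjustment for the number of genes tested. With RLE in place of TMM, the likelihood ratio test gave these an unadjusted p of 0.109, 0.0807 and 0.0297. After the filter on low counts it gave 0.101, 0.117 and 0.0328. The quasi-likelihood F test gave 0.0223, 1.1e-05 and 0.0194, and DESeq2 gave 0.0318, 0.219 and 0.0476.

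**Figure D5:**
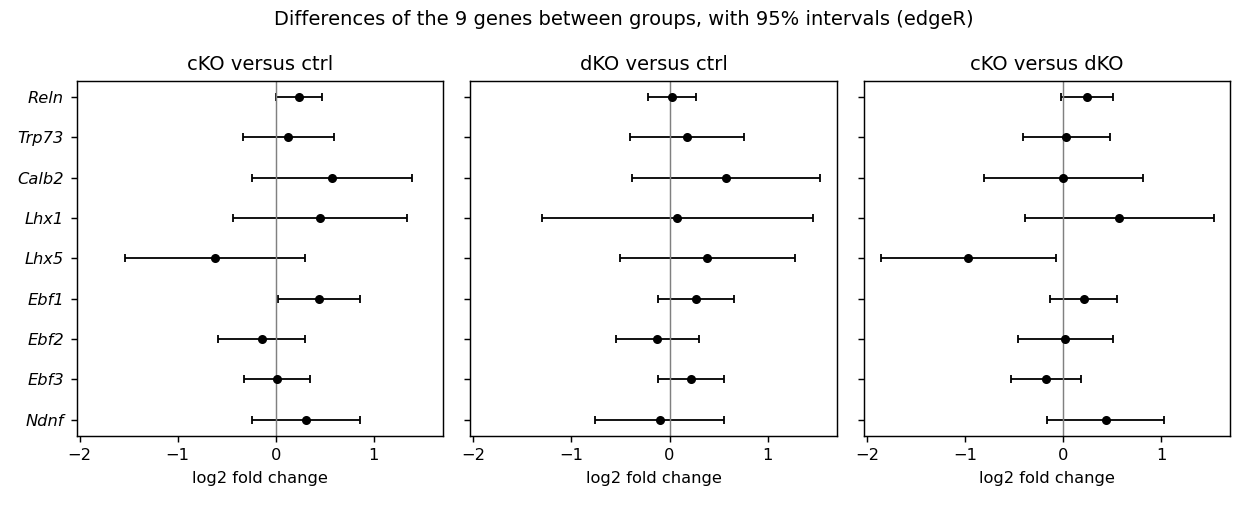
Log2 fold change of each of the 9 genes for each pair of groups, with 95% intervals from the edgeR fit. Points right of 0 are higher in the group named first; the intervals of *Reln* and *Ebf1* in the first panel and of *Lhx5* in the third do not reach 0.

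Of a further 17 genes known from Cajal-Retzius cells or from the regions that give rise to them, 2 fell in cKO versus ctrl and the other 15 were not called. The summed levels overlapped, at 514 to 740 CPM in ctrl, 540 to 614 CPM in cKO and 536 to 614 CPM in dKO. In cKO versus ctrl, 13 of the 17 had log fold changes below 0, with a median of −0.49, against 0.037 over the genes that passed the filter. The 2 called were both lower, where 0.102% of all genes were called lower. *Eomes*, a T-box factor that is also abundant in intermediate progenitors, fell from 73.6 ± 16.4 to 35.0 ± 9.48 CPM, with a log fold change of −1.13 (FDR of 5.1e-06). *Onecut2*, a homeobox factor, fell from 31.1 ± 5.63 to 16.8 ± 5.39 CPM, with −0.89 (FDR of 0.0326). *Zic5*, *Lhx9*, *Onecut3*, *Dmrt3* and *Emx2* were lower at an unadjusted p, with log fold changes of −0.69, −0.49, −2.03, −0.99 and −0.49. The means of *Onecut3*, 0.193 CPM in cKO and 0.661 CPM in ctrl, were below the level of 3 counts in every mouse of these groups. At an unadjusted p below 0.05, 7 of the 17 genes were lower, the 2 called included, and 1 was higher. Of the genes that pass the filter on low counts, 10.5% had such a p, in either direction. *Nectin1*, an adhesion molecule of Cajal-Retzius cells, was at 110 ± 5.73 CPM in cKO and 89.9 ± 12.6 CPM in ctrl, with 0.27 (unadjusted p of 0.0315, FDR of 0.852). In dKO versus ctrl 0 of the 17 were called, 13 of the 17 values were again below 0, the median was −0.29, and *Eomes* and *Onecut2* had log fold changes of −0.51 and −0.86 (unadjusted p of 0.00546 and 6.8e-05). Between cKO and dKO 0 were called, and *Eomes* had −0.58 (unadjusted p of 0.00977). *Eomes* is also 1 of 10 genes in a list of progenitor markers, in which it and *Neurog2*, a proneural factor with a log fold change of −1.19 (FDR of 0.00564), fell in cKO versus ctrl.

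Markers of the other cells that the dissection could hold were measured in the same mice. The sum of 12 meningeal genes was 138 CPM in ctrl mouse T3, 72.5 CPM in ctrl mouse T4 and 142 CPM in dKO mouse T8, and between 15.7 and 33.3 CPM in the other mice, and 1 of its genes, *Aldh1a2*, fell in cKO versus ctrl, with a log fold change of −4.31 (FDR of 0.0408). Mice T3, T4 and T8 had *Reln* at 474, 470 and 483 CPM, near the low end of all mice. They were among the mice with fewer than 3000000 counts, in all of which *Reln* was at 470 to 542 CPM. Ctrl mouse 2 and dKO mouse T2, also among these, had meningeal sums of 25.2 and 16.6 CPM and *Reln* at 477 and 494 CPM. Of 13 interneuron genes, *Gad1*, which encodes a GABA-synthesizing enzyme, rose in cKO versus ctrl, from 120 ± 24.1 to 182 ± 22.9 CPM, with 0.56 (FDR of 0.0408). Of 5 thalamic genes, *Lhx2*, which is also a factor of cortical progenitors, fell in cKO versus ctrl, with −0.69 (FDR of 0.0337). Of 6 genes of cortical identity, *Emx1* fell, with −0.84 (FDR of 0.0194). No gene was called among 8 genes of pericytes and endothelium, summed at 71.1 to 130 CPM over the 15 mice, or among 4 genes of olfactory bulb mitral cells, at 0 to 9.77 CPM in ctrl. The part of any of these cells in the levels of the 9 genes was not tested.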

How the data were processed

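ClickSeq libraries of total RNA, depleted of ribosomal RNA, were made from dissected E15.5 cortices. According to the submitters' processing notes and the study's methods, reads were trimmed with cutadapt 1.13, aligned to GRCm38 (mm10) with STAR 2.5.2a, deduplicated by UMI with UMI-tools 0.5.3 and counted with HTSeq 0.6.1p1. The counts that the authors deposited are whole numbers of deduplicated reads for each gene in each library and are not normalized. Their annotation release is not given in the sources used here. The 5 summary lines of each file were left out, and GENCODE M21 gave symbols and coordinates, counted from 1, for 51719 of the 51912 identifiers. Libraries S2 and S2b have the same mouse name and were added together.

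For each comparison, edgeR 4.0.16 (R 4.3.3; TMM, estimateDisp, glmFit, glmLRT) was run on the mice of the groups compared, over all listed genes and without covariates, with Benjamini-Hochberg FDR. Log fold changes are log2. Intervals are the log fold change ± 1.96 standard errors. CPM is scaled by TMM over all 15 mice, and log2 CPM has a prior count of 2. The 3 counts that set the limit for a count of 0 were 0.341 to 7.50 CPM and cover counting error only. P-values rest on the spread between these mice, which edgeR estimates in part from other genes. They take littermates as independent, and litter and batch enter only where named as covariates.

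The genes named are the 9 genes, the deleted genes, the 5 genes most like *Reln* among those of at least 10 CPM and, from each marker list, those called or at an unadjusted p below 0.05. *Dab1* and *Cdh2*, the most abundant of the Reelin pathway, and *Cxcr4* and *Sox2* were added after their values were seen. *Bcl11b*, *Foxp2* and *Rora* were named as abundant genes of their lists, and *Nxph4*, *Ccn2* and *Cplx3* as the least abundant of the subplate and deep layers. The 9 genes and the lists were chosen with earlier results of these data known. Alternatives were the quasi-likelihood F test, DESeq2 1.42.0, RLE size factors, filterByExpr, all groups in 1 fit, batch, litter or sex as a covariate, wild-type ctrl mice, mice of 1 batch, each S2 library alone, CPM without TMM, exonic length, and leaving out each mouse. Fits without ctrl mouse 6 and on mice above 3000000 counts were chosen after seeing the data. Plots were made with matplotlib 3.10.9.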

Additional observations from a re-analysis of the deposited data

Results flagged for a closer look

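Of 63 sets of 4 or 7 mice examined for a mouse far from the rest, 5 held one by Dixon's 95% critical value, which by its construction chance passes in about 1 set in 20. Ctrl mouse 6 had *Reln* at 646 CPM, the next ctrl mouse being at 542 CPM, and without TMM these were 625 and 585 CPM. DKO mouse T2 had *Lhx5* at 18.2 CPM, the next dKO mouse being at 6.47 CPM. Ctrl mouse T5 had *Ebf3* at 20.0 CPM, the next lowest being at 36.7 CPM. DKO mouse T8 had a meningeal sum of 142 CPM, against 28.7 CPM in the next dKO mouse. The pericyte and endothelium sum of cKO mouse S2, 90.8 CPM, was below that of the next lowest cKO mouse, 110.0 CPM. Mice T2 and T5 were shallow, so that the values of *Lhx5* and *Ebf3* rest on 11 and 9 counts.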

How the results depend on the processing

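Of the comparisons of the 9 genes, the number called was 1 in place of 0 in cKO versus ctrl with the quasi-likelihood F test and with litter as a covariate, the gene being *Ebf1* in both, and 0 in all other fits. Beside leaving out single mice, 267 of 319 log fold changes kept their direction and side of the threshold, 2 became called (*Ebf1*), 43 changed sign without being called, and 7 kept their direction with no adjusted p from DESeq2 in dKO versus ctrl. In cKO versus ctrl these were *Ebf3* at −0.029 with DESeq2, −0.031 with RLE size factors, −0.034 with filterByExpr, −0.025 with library S2b alone, −0.0023 with sex and −0.065 with wild-type ctrl mice. They were *Trp73* at −0.020 with batch, −0.064 with litter and −0.14 in batch 1, *Ebf2* at 0.14 with litter, 0.23 in batch 1 and 0.17 with litter as a covariate and mouse 6 left out, and *Ndnf* at −0.19 with litter and −0.056 in batch 1. In dKO versus ctrl they were *Lhx1* at −0.056 with all groups in 1 fit and −0.29 with wild-type ctrl mice, *Ndnf* at 0.59 with batch and in batch 3, and *Reln* at −0.0052 with litter. In cKO versus dKO they were *Calb2* at −0.049 with the F test, −0.041 with RLE, −0.042 with filterByExpr, −0.00082 with all groups, −0.063 with sex, −0.060 with library S2 alone and −0.33 in the deep mice. They were *Trp73* at −0.029 with DESeq2, −0.025 with filterByExpr, −0.017 with RLE, −0.094 with batch and −0.11 in batch 3, and *Ebf2* at −0.038 with DESeq2 and filterByExpr, −0.028 with RLE, −0.14 with batch, −0.015 with litter and −0.12 in batch 3. The remaining ones were *Lhx1* at −0.077 with batch and −0.11 in batch 3, *Ebf1* at −0.24 with batch and in batch 3 and −0.19 with litter, and *Lhx5* at 0.21 with litter. In cKO versus dKO the fits with batch, with litter and in batch 3 all compare the mutants through cKO mouse F3 alone. *Lhx1* in dKO versus ctrl was 4.83 to 5.06 with batch, with litter and in batch 3, where the ctrl mice hold 0 counts, so these values are no estimate of size. The causes were not tested.

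Leaving out 1 mouse changed no call and changed the sign in 26 of 270 values. The ranges of these were −0.34 to 0.039 for *Ebf2* and −0.077 to 0.11 for *Ebf3* in cKO versus ctrl, and −0.027 to 0.091 for *Reln*, −0.13 to 0.40 for *Trp73*, −0.21 to 0.42 for *Lhx1*, −0.020 to 0.79 for *Lhx5* and −0.42 to 0.25 for *Ndnf* in dKO versus ctrl. For cKO against dKO they were −0.098 to 0.28 for *Trp73*, −0.33 to 0.27 for *Calb2* and −0.20 to 0.21 for *Ebf2*. Among the called genes of the other lists, in cKO versus ctrl, *Eomes* was called in 25 of 25 alternatives, *Neurog2* in 19, *Drd2* in 15, *Lhx2* in 14, *Emx1* in 13, *Gad1* in 11 and *Onecut2* in 10 of 25, and *Ttr* in 18 and *Aldh1a2* in 8 of 24. *Ttr* was called in 14 of 19 in cKO versus dKO. *Ttr* in cKO versus ctrl was 3.25 with litter as a covariate and mouse 6 left out. No paired analysis was possible on replicate numbers, because these follow the order of the samples. The labels give litters that hold mice of different groups, and litter as a block changed 1 call, that of *Ebf1* in cKO versus ctrl (0.82, FDR of 3.05e-07), and none of the other calls of the 9 genes. Depth limits *Lhx1*, *Lhx5* and *Calb2* most, which hold 0 to 24 counts in the ctrl mice.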

Other observations

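The other marker lists held further genes with an unadjusted p below 0.05 in edgeR's likelihood ratio test that did not pass the FDR, and their log fold changes are given as values. Among interneuron genes in cKO versus ctrl they were 0.35 for *Gad2*, 0.43 for *Dlx1*, 0.67 for *Dlx5*, 0.33 for *Lhx6*, 0.83 for *Sst* and 2.15 for *Htr3a*. In cKO versus dKO they were 0.50 for *Gad1*, 0.40 for *Gad2*, 0.39 for *Dlx1*, 0.56 for *Dlx2* and 1.62 for *Htr3a*. *Htr3a* was low, at means of 3.45 CPM in cKO, 0.572 CPM in ctrl and 0.658 CPM in dKO. In dKO versus ctrl the value was 0.89 for *Sst*. In this list 7 of 13 genes, *Gad1* included, were higher and 0 lower in cKO versus ctrl at that p. Of the genes that pass the filter on low counts, 10.5% had such a p in that comparison, in either direction. *Gad2*, like *Gad1*, encodes a GABA-synthesizing enzyme, and the *Dlx* genes and *Lhx6* encode homeobox factors of interneurons.

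Genes of the meninges were also among those with such a p. In cKO versus ctrl the log fold changes were −3.13 for *Col1a1*, −1.65 for *Col1a2*, −2.43 for *Col3a1*, −3.56 for *Slc6a13* and −0.53 for *Cxcl12*, and in cKO versus dKO they were −3.72 for *Col1a1*, −2.71 for *Col1a2*, −1.71 for *Col3a1*, −4.33 for *Aldh1a2* and −3.99 for *Slc6a13*. *Col1a1*, *Col1a2*, *Col3a1* and *Slc6a13* had means of 4.95, 2.90, 11.2 and 2.54 CPM in ctrl, each with an SD above its mean, and 0.460, 0.856, 1.92 and 0.136 CPM in cKO. *Cxcl12* encodes a chemokine that Cajal-Retzius cells are known to respond to through the receptor gene *Cxcr4*, which was at 11.6 ± 2.26 CPM in cKO, 15.0 ± 4.32 CPM in dKO and 12.4 ± 6.16 CPM in ctrl. The meningeal sums of ctrl mice T3 and T4 and dKO mouse T8 stood above those of all other mice.

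Among progenitor genes, *Pax6* (−0.42) and *Vim* (−0.35) were lower in cKO versus ctrl at an unadjusted p, and *Neurog2* (−0.64) and *Insm1* (−0.62) in dKO versus ctrl. *Sox2* was counted 0 times in all mice, and it lies within a longer gene on the same strand. *Tcf7l2* (−0.53) was lower in cKO versus ctrl and *Lhx2* (−0.34) in dKO versus ctrl. *Emx1* (−0.59) and the olfactory bulb gene *Doc2g* (−1.08) were lower in cKO versus dKO. *Rgs5* (0.39) and *Cspg4* (0.72) of the pericyte list were higher in cKO versus ctrl.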
